A study of Mus musculus with 6 samples.

Results

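The genes described here are 8 members of the cell death machinery in the mouse mammary carcinoma line 4T1: the caspase genes Casp4, Casp8 and Casp9, the inhibitor of apoptosis genes Birc2, Birc3 and Xiap, and the necroptosis genes Ripk3 and Mlkl. They were taken by symbol from a table of 56448 genes, where each of the 8 had 1 row. The study measured messenger RNA of 4T1 cells, a line grown in medium with serum per the growth protocol, after stable lentiviral knockdown of the microRNA miR-9. The sources disagree on the material and assay: the growth protocol describes cultured cells, the extraction protocol speaks of tissue and sequencing, and the design text mentions a microarray. The deposited values are TPM, so they are read here as RNA sequencing, and whether cells other than 4T1 were in the material cannot be told from the labels. There were 6 libraries, 3 labelled LV2 and 3 labelled in9, all labelled as 4T1. The labels neither spell out these names nor say which group is the control, so each difference is given as in9 minus LV2. The sources used here do not say whether a group came from 1 clone or whether replicates were separate cultures, so p-values measure the spread between these libraries, which may be technical.

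Cells die in a regulated way by several routes that share parts. In the extrinsic route of apoptosis, death receptors recruit caspase 8, and in the intrinsic route cytochrome c released from mitochondria lets APAF1 activate caspase 9. Both lead to executioner caspases, which the inhibitor XIAP blocks directly, while BIRC2 and BIRC3 (cIAP1 and cIAP2) are ubiquitin ligases that keep RIPK1 in a pro-survival state. When caspase 8 is inactive, RIPK1, TRIF or the nucleic acid sensor ZBP1 can engage the kinase RIPK3, which phosphorylates MLKL, and MLKL then breaks the plasma membrane in necroptosis. Mouse caspase 4, also called caspase 11, senses cytosolic lipopolysaccharide and cuts gasdermin D in pyroptosis.

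Values are TPM, a share of all transcripts that is scaled for transcript length, so levels can be set side by side between genes. They carry no read totals, and with the depth unknown no counting error can be given. Between 20123 and 20538 genes were above 0 in a library. On the first principal component in9 replicate 1 lay at -2.70, far from in9 replicates 2 and 3 (26.1 and 27.8) and nearer to LV2 (-22.2 to -6.98), and its mitochondrial transcripts held 6.42% of TPM, against 7.64% and 7.49% in the other in9 libraries and 5.90% to 6.01% in LV2. All 6 epithelial markers checked were at 1 TPM or more in each library, with a summed TPM of 2150 to 2169 in LV2 and 2044 to 2080 in in9, mostly Krt8 and Krt18. Single markers went different ways. Epcam had a mean of 45.8 TPM in LV2 against 36.9 TPM in in9, without overlap, and Cdh1 124 against 141 TPM, with overlap, and neither was called. Of 7 leukocyte markers 6 were below 1 TPM in each library (Adgre1 at 0 in all), and the summed level of 27.7 to 28.9 TPM in LV2 against 33.7 to 40.6 TPM in in9 was nearly all Cd68, a lysosomal gene. Of 6 fibroblast and endothelial markers 4 were below 1 TPM in each library (Lum at 0 in all), and the sum was 6.39 to 8.19 TPM in LV2 against 9.71 to 10.4 TPM in in9, mostly Pdgfra. The part of the higher Cd68 and Pdgfra in the results below was not tested. In bulk RNA, fewer cells with a transcript and less transcript per cell cannot be told apart.

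Since the study lowered miR-9, its sequence is shown first. The 3 mouse precursor genes give the same mature sequences in RefSeq (GRCm38.p6), printed here with the seed, bases 2 to 8, in capitals.
mmu-miR-9-5p: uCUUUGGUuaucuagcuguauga
mmu-miR-9-3p: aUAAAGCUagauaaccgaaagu
A transcript with a site holds the reverse complement of the seed, which in DNA letters is ACCAAAG for the 5p arm and AGCTTTA for the 3p arm, or the match of bases 2 to 7 followed by an A. Neither arm had such a match in the longest annotated 3' UTR (GENCODE M21) of any of the 8 genes, whose lengths ran from 202 bases in Ripk3 to 4672 bases in Xiap. By the same search, 22.2% of 10952 tested genes with a 3' UTR held a match for the 5p arm and 19.4% for the 3p arm. The absence of a match says only that these letters are not in these UTRs.

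The 8 genes covered levels from 0 to the upper part of the transcriptome, and their order was the same in every library but in9 replicate 3, where Casp9 was just above Birc3. Mlkl was the most abundant with a mean of 104.8 TPM over the 6 libraries, which put it at percentile 88.7 of the 13406 genes tested (those with a mean TPM of at least 1). Casp8 followed at 56.4 TPM (percentile 78.2) and Xiap at 34.9 TPM (percentile 66.6). The ranges of these top 3 genes over the 6 libraries did not overlap. Birc3 at 17.2 TPM, Casp9 at 12.7 TPM and Birc2 at 9.15 TPM formed a middle tier in which neighbouring ranges overlapped. Casp4 was low, at 1.84 TPM (percentile 7.65), and Ripk3 was listed at 0 in all 6 libraries.

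**Figure D1:**
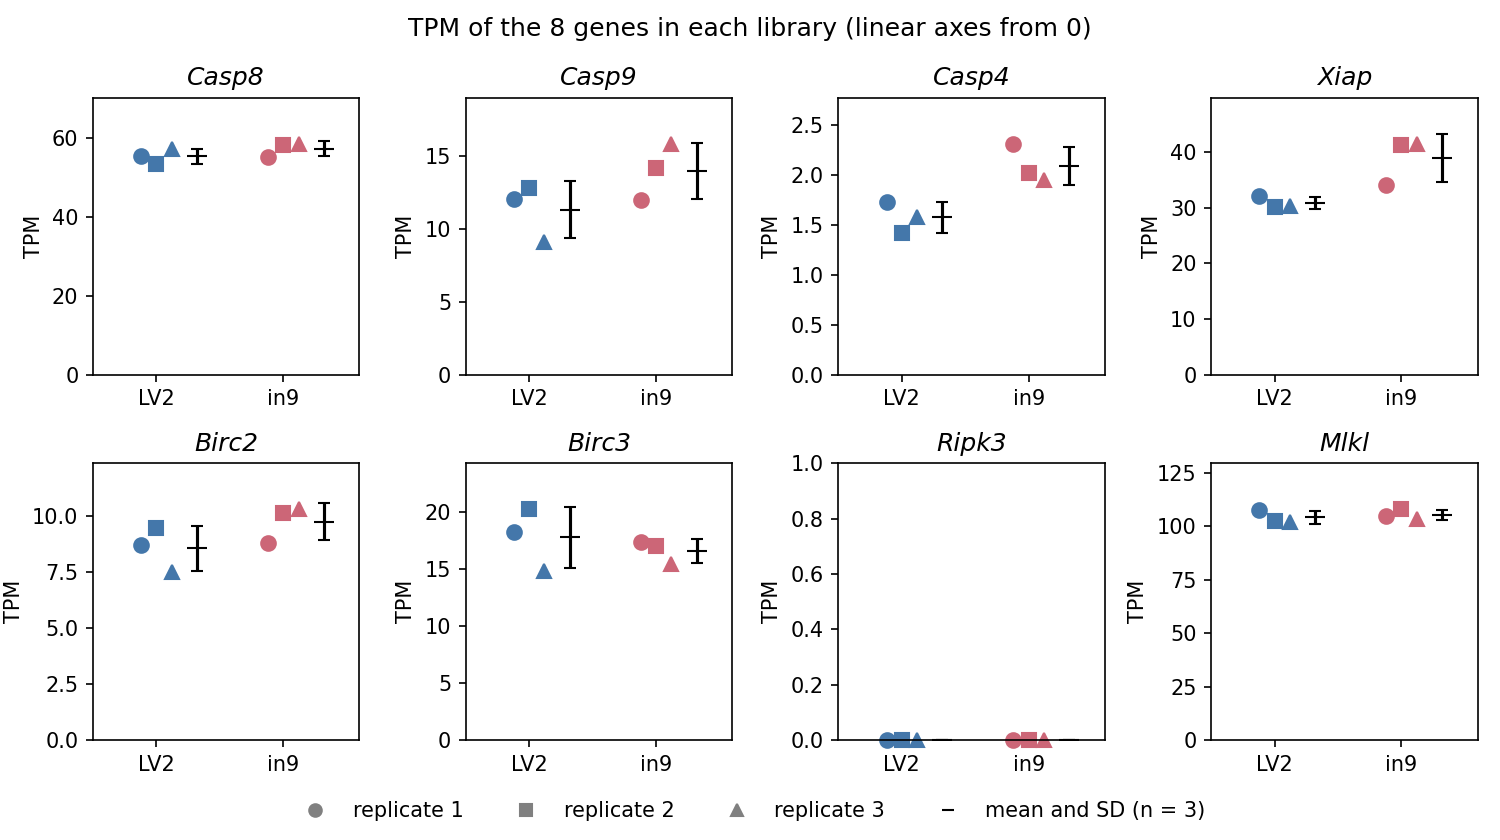
TPM of the 8 genes in each library (points, shaped by replicate number) for the groups LV2 and in9, on linear axes that start at 0 and differ between panels, with the group mean and SD (n = 3) beside the points. Ripk3 is at 0 in all 6 libraries while Mlkl lies between 102.27 and 107.99 TPM, and only Xiap and Casp4 have in9 values that all lie above the LV2 values.

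None of the 8 genes was called different between the groups. Of the 7 that could be tested, 0 were higher and 0 lower at an adjusted p under 0.05 in limma, against 0.821% of all tested genes called higher (110 genes) and 0.194% called lower (26 genes), a split that was 47 and 25 genes after trimmed-mean scaling. At an unadjusted p under 0.05 there was 1 higher gene, Xiap, and 0 lower, where 13.6% of all tested genes were higher and 5.86% lower by that measure. The groups did not overlap for 2 of the 7, Xiap and Casp4, both higher in in9, beside 17.4% of all tested genes higher and 8.08% lower without overlap. With so few members these shares cannot be told from the background. The median log2 fold change of the 7 was 0.17, and 6 of the 7 were positive, while the median over all tested genes was 0.06 and most of them were positive too (8543 of 13406). After trimmed-mean scaling between libraries the median of the 7 was 0.11 with 4 positive, and that of all tested genes was 0.00 (-0.0031). With 3 libraries against 3 an exact permutation test cannot give a two-sided p below 0.1, the value it gave for Xiap and for Casp4.

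**Figure D2:**
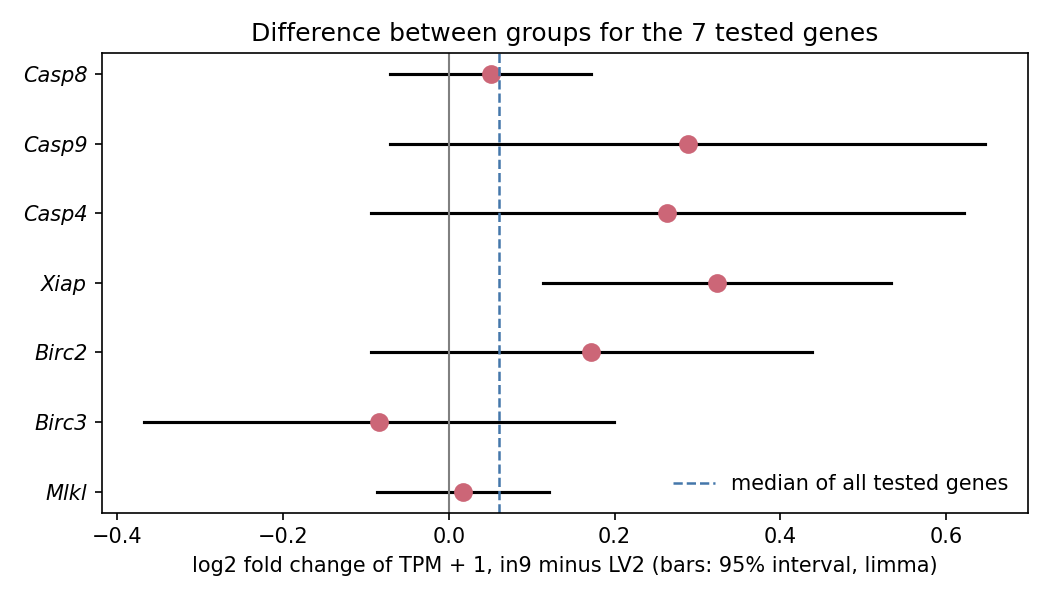
Log2 fold change of TPM + 1 (in9 minus LV2) for the 7 tested genes, with 95% intervals from limma, a solid line at 0 and a dashed line at the median of all tested genes, 0.06. The interval of Xiap, 0.11 to 0.53, lies above 0, those of the other 6 genes include it, and the intervals of Mlkl and Casp8 are the shortest.

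Casp8, the initiator caspase of death receptors and the brake on necroptosis (chromosome 1, positions 58795374 to 58847503 in mm10), had 55.38, 53.49 and 57.29 TPM in LV2 against 55.33, 58.33 and 58.51 TPM in in9. The groups overlapped, with in9 replicate 1 inside the LV2 range. Its log2 fold change was 0.05 ± 0.05 (SE, adjusted p = 0.612 in limma), with a 95% interval of -0.07 to 0.17. Its sign turned to -0.02 after trimmed-mean scaling. The catalytically inactive homologue Cflar (c-FLIP), a close neighbour on chromosome 1 that pairs with caspase 8 and restrains it, was at 41.0 ± 2.25 TPM in LV2 against 43.8 ± 4.95 TPM in in9 (SD, n = 3). Within a library, the TPM ratio of Casp8 to Cflar was 1.40, 1.23 and 1.44 in LV2 and 1.45, 1.26 and 1.24 in in9. Casp8 thus exceeded Cflar in all 6 libraries, and the ratios of the groups overlapped. Fadd, the adaptor that brings caspase 8 to the receptors, was lower, at 7.87 ± 0.660 TPM in LV2 against 7.91 ± 0.473 TPM in in9.

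Casp9, the caspase of the apoptosome (chromosome 4, positions 141793612 to 141815976), had 12.05, 12.83 and 9.14 TPM in LV2 against 12.01, 14.20 and 15.84 TPM in in9. LV2 replicate 3 was the lowest and in9 replicates 2 and 3 the highest, while in9 replicate 1 lay within the LV2 range. Its log2 fold change of 0.29 ± 0.15 (SE) did not pass the test (adjusted p = 0.344 in limma), and its interval of -0.07 to 0.65 was the widest of the 7. Leaving out 1 library moved it between 0.15 (LV2 replicate 3 left out) and 0.39 (in9 replicate 1 left out). Apaf1, the scaffold of the apoptosome, was at 7.92 ± 0.527 TPM in LV2 against 8.97 ± 0.258 TPM in in9 (log2 fold change 0.16, not called). The ratio of Casp9 to Apaf1 was 1.41, 1.69 and 1.19 in LV2 and 1.31, 1.56 and 1.83 in in9, so the groups overlapped.

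Casp4, the inflammatory caspase that senses lipopolysaccharide, lies between Casp1 and Casp12 on chromosome 9 (positions 5308828 to 5336783). It had 1.73, 1.42 and 1.58 TPM in LV2 against 2.31, 2.02 and 1.95 TPM in in9. All in9 values lay above all LV2 values. The log2 fold change of 0.26 ± 0.15 (SE) did not pass the test (adjusted p = 0.379 in limma), with an interval of -0.09 to 0.62. On the log2(TPM + 1) scale the change of so low a gene is understated, and with a pseudocount of 0.1 it was 0.39. Its neighbour Casp12 had 0.96, 0.90 and 0.98 TPM in LV2 against 1.39, 2.13 and 1.66 TPM in in9, again without overlap, and was not called (adjusted p = 0.222 in limma). Casp1, the caspase of canonical inflammasomes, was at 0.62 to 0.76 TPM in LV2 against 0.65 to 1.46 TPM in in9 and fell under the filter. The 3 genes of this cluster are similar in sequence and may share reads.

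The start of Casp4 is shown because it was 1 of 2 members with an NF-kB motif found on the gene's own strand. The window searched ran from 250 bases before to 50 after a RefSeq start. The capitals mark 2 overlapping matches, at -93 to -84 and -92 to -83 from the start, in chr9:5308599-5308898 on the plus strand (GRCm38.p6).
Casp4 promoter: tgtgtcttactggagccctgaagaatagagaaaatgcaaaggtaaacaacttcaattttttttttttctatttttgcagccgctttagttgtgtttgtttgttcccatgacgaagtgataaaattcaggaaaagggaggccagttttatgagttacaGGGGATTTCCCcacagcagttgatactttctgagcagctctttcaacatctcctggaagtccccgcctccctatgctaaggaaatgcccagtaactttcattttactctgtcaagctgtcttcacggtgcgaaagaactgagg
All 8 genes had such a window, 12 in all because 3 genes have more than 1 start. On the gene's own strand the NF-kB motif was found in both Casp4 windows and in 1 of the 3 Xiap windows. The same search found it in 5.89% of 32817 windows of all genes. The interferon element ISRE, searched as GAAA and a second GAAA with any 2 bases between them, was in none of the members' windows and in 3.43% of all windows. The STAT element GAS, TTCNNNGAA, added after the other motifs, was in none of them and in 8.29% of all. Both strands were searched for ISRE and GAS. The NF-kB motif, GGGRNNYYCC (R is A or G, Y is C or T), was searched on the gene's own strand only. Its matches on the other strand are neither counted nor in capitals. A match is a string of letters, not a measured site.

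Xiap, whose protein binds and blocks caspases (chromosome X, positions 42059679 to 42109656), had the largest log2 fold change of TPM + 1 among the 7 tested genes. By the fold of group means Casp4 was ahead, at 1.33-fold against 1.26-fold, and with a pseudocount of 0.1 the log2 fold change of Casp4 was 0.39 against 0.33 for Xiap. It had 32.10, 30.06 and 30.27 TPM in LV2 against 34.05, 41.34 and 41.44 TPM in in9. All in9 libraries were above all LV2 libraries, with in9 replicate 1 close to LV2 and the others together. The means differed 1.26-fold (30.8 ± 1.12 against 38.9 ± 4.24 TPM, SD, n = 3), and the log2 fold change was 0.32 ± 0.09 (SE). It missed the threshold over all genes (adjusted p = 0.131 in limma). Without in9 replicate 1 the log2 fold change was 0.41 with an adjusted p = 0.0174 in limma, and with library weights 0.40 with an adjusted p = 0.0189. Calls rose throughout under these settings. Of all tested genes, 971 were higher without in9 replicate 1 and 1166 with library weights, against 110 as reported. For Xiap the alternatives ran from 0.26 (trimmed-mean scaling) to 0.41, with adjusted p-values of 0.0174 to 0.344. The tested genes whose log2 values over the 6 libraries were most like those of Xiap were Neurl1b, Cd164 and Igf2bp2, with a Pearson r of 0.999, 0.998 and 0.998. Each has in9 replicate 1 nearest to LV2, and none of the 3 was called. For Casp9 the most similar genes were Atp2c1, Mms22l and Fkbp1a, with r of 0.989, 0.986 and 0.985. These r values come from 6 libraries shared by all genes, chosen as the highest among all tested genes, and are descriptions.

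Birc2 and Birc3, which encode cIAP1 and cIAP2, are neighbours on chromosome 9 (positions 7818227 to 7837064 and 7848699 to 7873186, both on the minus strand). Birc2 had 8.71, 9.47 and 7.48 TPM in LV2 against 8.80, 10.13 and 10.30 TPM in in9, and its log2 fold change was 0.17 ± 0.11 (SE, adjusted p = 0.433 in limma). Birc3 had 18.23, 20.25 and 14.87 TPM in LV2 against 17.39, 17.04 and 15.41 TPM in in9, and its log2 fold change was -0.08 ± 0.12 (SE, adjusted p = 0.723). In both genes the groups overlapped, and LV2 replicate 3 was the lowest library. The sign of Birc3 depended on 1 library, with 0.01 without LV2 replicate 2.

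Relative to its mean, the ratio of Birc3 to Birc2 varied less within LV2 than either gene did, but more within in9. There its SD was 0.242 on a mean of 1.72, against 0.821 on 9.74 TPM for Birc2 and 1.06 on 16.6 TPM for Birc3. The ratio was 2.09, 2.14 and 1.99 in LV2 and 1.98, 1.68 and 1.496 in in9. All in9 ratios lay below all LV2 ratios, although in9 replicate 1 differed from LV2 replicate 3 only in the second decimal. The ratio is free of any scaling between libraries, and it was not tested. The genes are close relatives and may share reads.

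**Figure D3:**
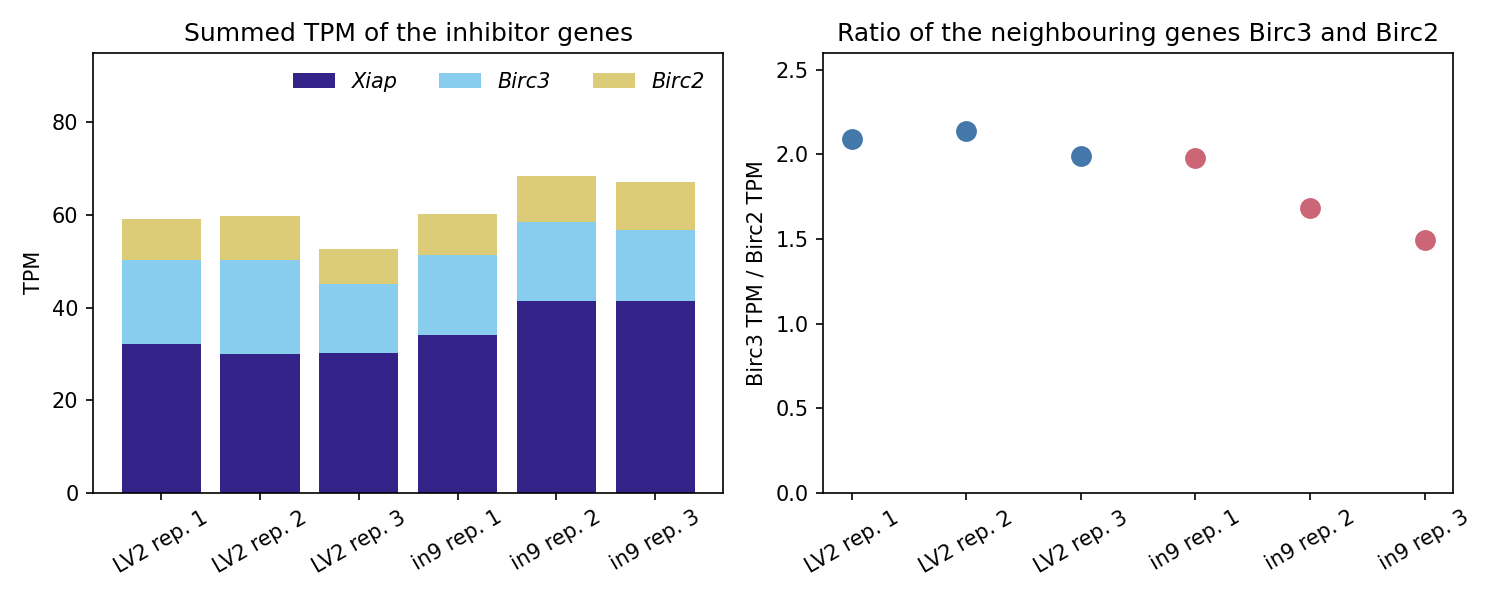
Left, stacked bars of the TPM of Xiap, Birc3 and Birc2 in each library, from 0. Right, the TPM ratio of Birc3 to Birc2 in each library (blue LV2, red in9): the LV2 ratios lie between 1.99 and 2.14 and the in9 ratios between 1.496 and 1.98.

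Summed over the 3 inhibitor genes, TPM was 59.0, 59.8 and 52.6 in LV2 and 60.2, 68.5 and 67.2 in in9. All in9 sums lay above the LV2 sums, with in9 replicate 1 close to LV2 replicates 1 and 2. Xiap made up 54.4%, 50.3% and 57.5% of the sum in LV2 and 56.5%, 60.3% and 61.7% in in9, so it was the most abundant of these 3 in each library. The sum leaves out Birc6 and Birc5, which were both above Xiap in each library. Diablo (Smac), the mitochondrial protein that displaces XIAP from caspases, was at 22.3 ± 1.23 TPM in LV2 against 25.6 ± 2.26 TPM in in9 (SD, n = 3; log2 fold change 0.19, not called). The ratio of Xiap to Diablo was 1.42, 1.43 and 1.29 in LV2 and 1.32, 1.78 and 1.49 in in9, with overlap. Xaf1, an antagonist of XIAP, was at 107 ± 8.25 TPM in LV2 against 139 ± 9.76 TPM in in9, with no overlap, and did not pass the test (log2 fold change 0.38 ± 0.08 SE, adjusted p = 0.075 in limma).

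The necroptosis pair was split. Ripk3, the kinase that phosphorylates MLKL (chromosome 14, positions 55784995 to 55788865), was listed at 0 in all 3 LV2 and all 3 in9 libraries, while all 8 housekeeping genes checked were above 0 in all libraries. The table gives TPM to 2 decimals and no counts, so an upper limit for Ripk3 cannot be stated. Mlkl, the executioner (chromosome 8, positions 111311797 to 111338177), had 107.64, 102.74 and 102.27 TPM in LV2 against 105.08, 107.99 and 103.29 TPM in in9. The groups overlapped, and the log2 fold change of 0.02 ± 0.04 (SE, adjusted p = 0.853 in limma) had the shortest interval of the 7, -0.09 to 0.12. Its sign turned to -0.05 after trimmed-mean scaling and to 0.00 from below (-0.00011) without in9 replicate 2. No ratio of Mlkl to Ripk3 could be formed.

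The promoter windows of this pair are shown because the genes stand at the ends of the order of levels. Capitals mark CpG dinucleotides, and both genes lie on the minus strand, at chr14:55788808-55789107 for Ripk3 and chr8:111338156-111338455 for Mlkl (RefSeq, GRCm38.p6).
Ripk3 promoter: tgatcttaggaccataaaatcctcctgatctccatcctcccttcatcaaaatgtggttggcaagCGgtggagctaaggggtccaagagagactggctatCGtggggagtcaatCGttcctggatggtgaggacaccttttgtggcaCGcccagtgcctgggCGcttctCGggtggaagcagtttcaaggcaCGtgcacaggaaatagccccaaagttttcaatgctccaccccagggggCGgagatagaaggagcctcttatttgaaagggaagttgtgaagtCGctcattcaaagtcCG
Mlkl promoter: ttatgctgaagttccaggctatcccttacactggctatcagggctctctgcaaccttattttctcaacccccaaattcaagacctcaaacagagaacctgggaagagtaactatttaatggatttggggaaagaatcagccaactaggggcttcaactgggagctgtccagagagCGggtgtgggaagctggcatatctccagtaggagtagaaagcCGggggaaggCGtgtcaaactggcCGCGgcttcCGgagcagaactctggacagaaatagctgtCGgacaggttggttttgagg
The Ripk3 window held 10 CpG and 52.7% GC, and the Mlkl window 7 CpG and 51.0% GC. Over all windows the median was 7 CpG and 52.7% GC, so both were ordinary in these respects. Methylation was not measured. The windows of Casp9 (28 CpG) and Birc2 (34 and 21 CpG) and a Xiap window (20 CpG) were richer. The other Xiap windows held 5 and 2 CpG, those of Casp4 and Casp8 5 each, and that of Birc3 had 7.

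Upstream of RIPK3, the sensor gene Zbp1 rose in in9. It had 26.04, 25.52 and 23.97 TPM in LV2 against 43.88, 57.52 and 46.13 TPM in in9, and every in9 library was well above every LV2 library. Its log2 fold change was 0.93 ± 0.11 (SE, adjusted p = 0.0294 in limma), with adjusted p-values of 0.00851 to 0.195 over the alternatives. It was the only called gene among 7 tested inputs and outputs of the necrosome, beside 0.821% of all tested genes called higher and 0.194% lower. The receptor gene Tlr3, which can signal through TRIF, was at 10.1 ± 0.410 TPM in LV2 against 13.5 ± 0.582 TPM in in9 and did not pass (adjusted p = 0.0692 in limma). Ripk1 was at 19.9 ± 2.03 TPM in LV2 against 20.6 ± 0.602 TPM in in9. The most abundant of this list, the chaperone gene Hsp90aa1 and the ubiquitin ligase gene Stub1, had log2 fold changes of 0.01 and -0.02.

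The other genes of these pathways were taken from 8 lists with 75 genes, of which 56 passed the filter. Of these 56, 3 were higher (Zbp1, Gbp2 and Gbp3) and 0 lower at an adjusted p under 0.05, beside 0.821% and 0.194% of all tested genes. The unadjusted p was under 0.05 for 9 higher and 4 lower genes of the 56, beside 13.6% and 5.86% of all tested genes. These unadjusted counts are near the background. The 3 called higher are a larger share than over all tested genes, in lists chosen with earlier results of these data known. The median log2 fold change of the 56 was 0.06, the same as over all tested genes. Without in9 replicate 1, 6 were higher and 2 lower, beside 971 and 509 of all tested genes, so the calls rose throughout. Without LV2 replicate 1, 2 or 3 or in9 replicate 2 the count was 1 higher, and without in9 replicate 3 it was 0. In these settings 6 to 10 of all tested genes were called higher.

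**Figure D4:**
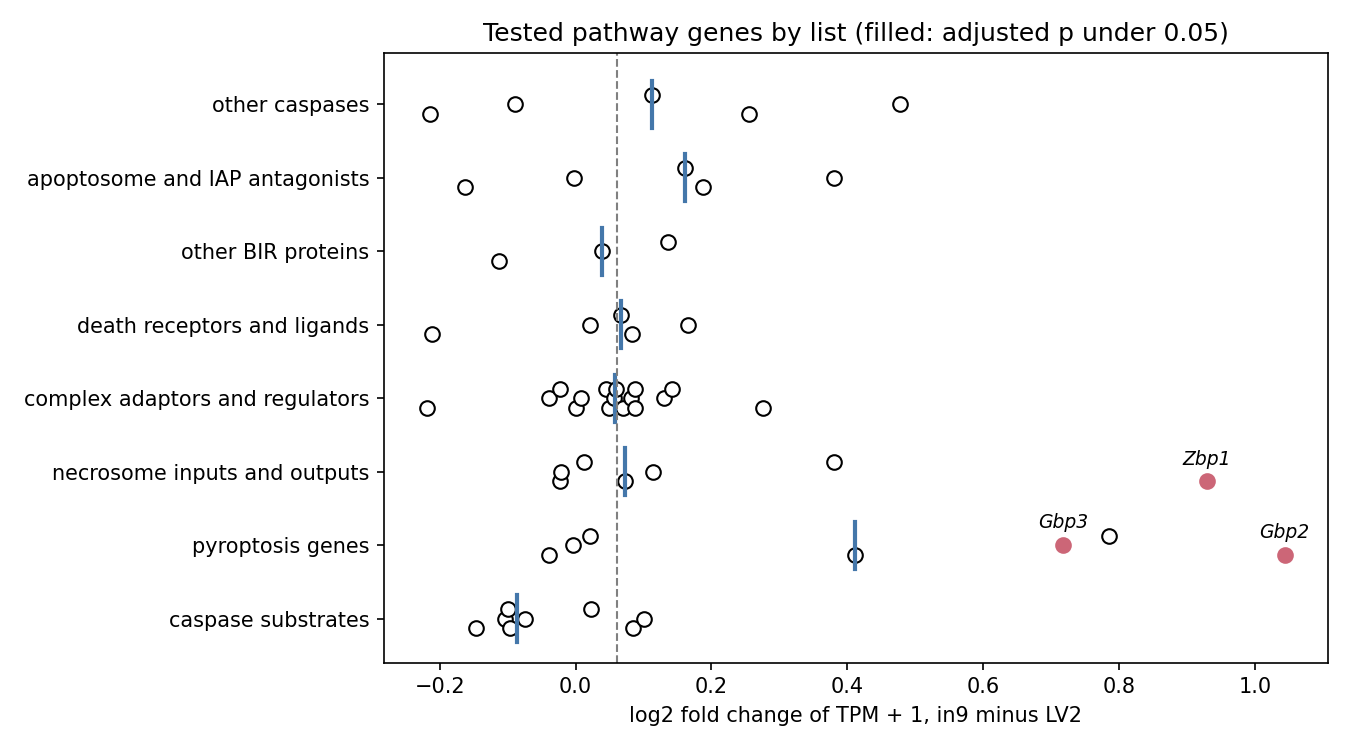
Log2 fold change of TPM + 1 (in9 minus LV2) of the 56 tested pathway genes, 1 circle per gene, by list, with the list median as a blue bar and the median of all tested genes as a dashed line. The 3 filled circles, Zbp1, Gbp2 and Gbp3, are the genes with an adjusted p under 0.05, and most open circles lie between -0.2 and 0.4.

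Among 5 tested caspase genes beside the members none was called (0.821% higher and 0.194% lower over all tested genes). By the unadjusted p under 0.05, 2 of the 5 were higher and 0 lower, beside 13.6% and 5.86% over all tested genes, and with 5 genes nothing is read from that. The executioner Casp6 was at 33.5 ± 1.63 TPM in LV2 against 36.3 ± 0.773 TPM in in9. Of 5 tested genes of the apoptosome and the IAP antagonists none was called, and Cycs, the gene of cytochrome c, was lower without overlap, at 71.1 ± 1.45 TPM in LV2 against 63.5 ± 3.78 TPM in in9 (adjusted p = 0.194 in limma). Of 3 tested genes of other BIR proteins none was called. Birc5 (survivin), which works in cell division, was at 275 ± 5.93 TPM in LV2 against 254 ± 3.99 TPM in in9 (adjusted p = 0.181), the giant ubiquitin enzyme gene Birc6 at 47.0 ± 3.75 and 48.3 ± 3.00 TPM, and the flagellin sensor family gene Naip2 at 2.76 ± 0.241 and 3.13 ± 0.162 TPM.

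Of 10 genes of death receptors, related TNF family receptors and their ligands 5 were tested and none was called (0.821% higher and 0.194% lower over all tested genes). Tnfrsf1a, the main TNF receptor, was at 41.6 ± 1.09 TPM in LV2 against 46.8 ± 1.95 TPM in in9 (adjusted p = 0.173 in limma). Tnfrsf12a, the receptor of TWEAK, was at 478 ± 11.4 TPM in LV2 against 414 ± 40.0 TPM in in9 (adjusted p = 0.183, and 0.0146 without in9 replicate 1). Without that library Tlr3, Cycs and Tbk1 passed as well (adjusted p = 0.0322, 0.0413 and 0.0421 in limma), among 971 higher and 509 lower of all tested genes. The ligand genes Tnf and Fasl, named after their values were seen, did not reach 1 TPM in any library. All 16 adaptors and regulators of the caspase 8 and RIPK1 complexes were tested and none was called. The deubiquitinase gene Otulin had the lowest p there, at 30.7 ± 1.36 TPM in LV2 against 26.2 ± 1.11 TPM in in9 (adjusted p = 0.139), followed by the kinase gene Tbk1 at 28.1 ± 1.62 and 34.3 ± 3.00 TPM (adjusted p = 0.148). The most abundant pair, Tnfaip3 (A20) and Rbck1 (HOIL-1), had log2 fold changes of 0.00029 and 0.13.

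In the pyroptosis list, 7 of 14 genes were tested and 2 were higher, beside 0.821% of all tested genes called higher and 0.194% lower. The 2 were the guanylate-binding protein genes Gbp2 and Gbp3, whose family helps expose bacterial lipopolysaccharide to caspase 4. Gbp2 rose from 12.6 ± 1.06 to 27.0 ± 1.04 TPM and Gbp3 from 29.1 ± 3.38 to 48.3 ± 1.198 TPM (SD, n = 3; adjusted p = 0.00837 and 0.0318 in limma, with 0.00335 to 0.194 and 0.0117 to 0.195 over the alternatives). Gbp3 had an adjusted p = 0.0502 after trimmed-mean scaling, and Gbp genes are alike enough to share reads. Gsdmd, the pore-forming substrate of caspase 4, was at 24.6 ± 0.961 TPM in LV2 against 24.6 ± 2.19 TPM in in9, and the membrane rupture gene Ninj1 at 42.9 ± 4.07 and 41.7 ± 4.65 TPM. The inflammasome adaptor gene Pycard stayed at or below 0.08 TPM in all 6 libraries. It and Gsdmd were named after their values were seen. Of 8 tested substrates of executioner caspases none was called. An unadjusted p under 0.05 was found in 0 of them, beside 13.6% higher and 5.86% lower over all tested genes, and with 8 genes nothing is read from that. Their median log2 fold change was -0.09, against 0.41 for the 7 tested pyroptosis genes and 0.06 over all tested genes. The lamin gene Lmna was at 972 ± 3.71 TPM in LV2 against 987 ± 12.3 TPM in in9, Lmnb1 at 82.0 ± 2.26 and 88.003 ± 2.41 TPM, and the DNA repair gene Parp1 at 67.8 ± 2.07 and 72.0 ± 2.52 TPM.

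**Figure D5:**
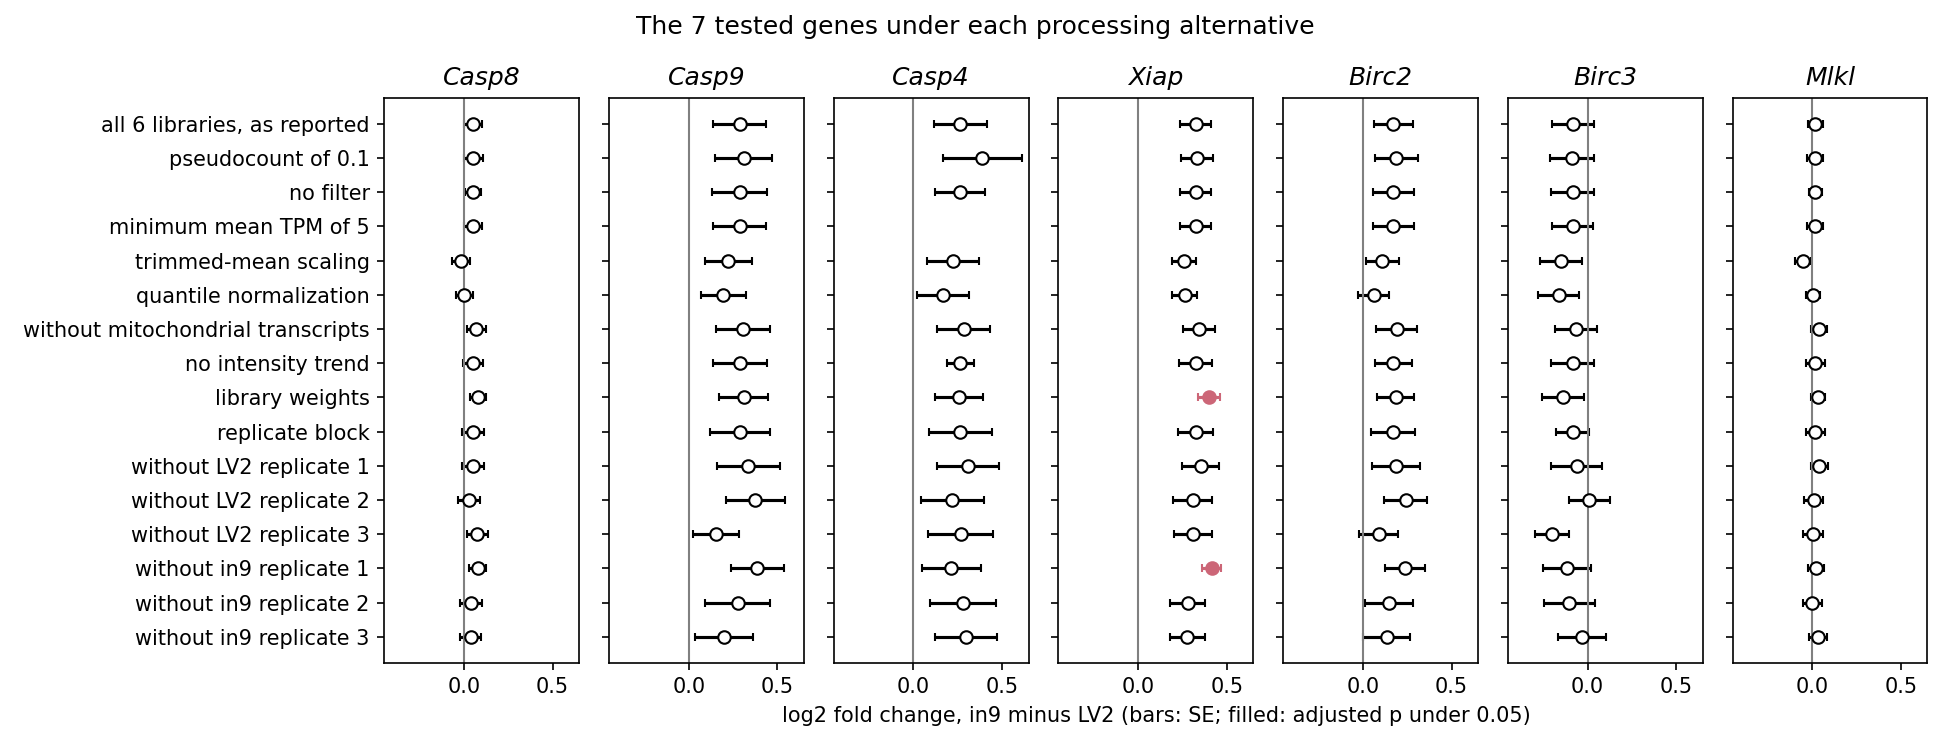
Log2 fold change (in9 minus LV2, with SE bars) of the 7 tested genes as reported and under each processing alternative, where filled points have an adjusted p under 0.05. Xiap is filled with library weights (0.40) and without in9 replicate 1 (0.41), where 1166 and 971 of all tested genes were called higher, against 110 as reported. No other gene is filled, and Casp4 has no point at a minimum mean TPM of 5 because it falls under that filter.

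Across the processing alternatives shown in the plot, Xiap, Casp9, Casp4 and Birc2 were positive throughout, at 0.26 to 0.41, 0.15 to 0.39, 0.17 to 0.39 and 0.06 to 0.24. Mlkl stayed between -0.05 and 0.04 and Casp8 between -0.02 and 0.08. Only Xiap was called in any of them, without in9 replicate 1 and with library weights. In these settings 971 and 1166 of all tested genes were called higher, against 110 as reported.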

How the data were processed

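Messenger RNA libraries of 4T1 cells were grouped by their titles as LV2 and in9, 3 each. The TPM values in the 1 table used are the authors' own, deposited with 2 decimals and with group means of TPM. The genome build was mm10, per the submitters' processing notes. No aligner, quantifier or annotation is given in the sources used here. The group means equalled the means of the libraries within 3.33e-05, and no pair of libraries was identical.

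Genes averaging 1 TPM or more over the 6 libraries were tested as log2(TPM + 1) with limma 3.58.1 in R 4.3.3, in9 minus LV2, with an intensity trend and no replicate block. The two-sided p-values were adjusted by Benjamini-Hochberg over all 13406 genes, and a call is an adjusted p under 0.05. The steps were tested on simulated data. Noise there was drawn independently for each gene and library, so shifts shared by a whole library were not covered. Sums, ratios and sequence searches used python 3.11.15. Coordinates and 3' UTRs came from GENCODE M21.

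The genes and lists were chosen with earlier results of these data known. Named were all members, called list genes, per list the 2 smallest p-values and the 2 highest levels, ratio partners, the direct partners Zbp1, Cflar, Ripk1 and Fadd, and the 3 most correlated genes of the 2 members with the smallest p. Alternatives were another pseudocount, filter, scaling or variance model, a replicate block, and leaving out each library. Protein sequences were not used here. The values of 1 gene that the rule names are not reported here.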

Additional observations from a re-analysis of the deposited data

How the results depend on the processing

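Over all tested genes the 110 higher and 26 lower calls were 24 and 6 with no filter, 27 and 4 without the intensity trend, 1166 and 523 with library weights, and 1 and 1 with the replicate block. After trimmed-mean scaling 47 were higher and 25 lower, and at a minimum mean TPM of 5 there were 45 lower. Leaving out 1 library gave 6 to 971 higher and 1 to 509 lower, the most in both cases without in9 replicate 1. Of the members 1 was higher with library weights and 0 to 1 without 1 library, the 1 being Xiap, and 0 were lower under any alternative. Of the pathway genes 3 were higher as reported, 1 with no filter or without the intensity trend, 7 with library weights, 0 with the replicate block and 0 to 6 without 1 library. Lower were 2 with library weights and 0 to 2 without 1 library. After trimmed-mean scaling the log2 fold changes of Casp8 and Mlkl turned to -0.017 and -0.051. Leaving out 1 library gave -0.20 to 0.010 for Birc3, positive without LV2 replicate 2, and -0.00011 to 0.040 for Mlkl, negative without in9 replicate 2. Casp4 gave no value at a minimum mean TPM of 5. Deviations of libraries of the same number had r of -0.10, 0.02 and -0.05, and those of unlike numbers -0.056 to 0.098. With 3 libraries per group, such values cannot tell whether the numbers pair the samples. No source used here states a pairing, so the block was an alternative only. The causes of these differences were not tested. Depth is unknown, so counting error of Casp4, near 2 TPM, and of Ripk3 cannot be separated from replicate spread.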
